A study of Homo sapiens with 6 samples.

Results

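Respiratory complex I, the NADH:ubiquinone oxidoreductase of the inner mitochondrial membrane, was described through its nuclear genes in macrophage-like cells made from THP-1, a human leukaemia line of monocyte origin. The members were all gene names of the count files made of NDUF, a class of A, AB, AF, B, C, S or V, and a number, which gave 46 of 57316 names. They comprised 7 core subunits, 30 accessory subunits, 8 assembly factors and NDUFA4, a former complex I subunit that is now counted with cytochrome c oxidase. All 46 passed edgeR's filter on low counts and were among the 16531 genes tested. The cells of both groups had received the phorbol ester PMA, which gives them macrophage features, (100 ng/ml, 48 h). The next 24 h they spent with 100 ng/ml of recombinant human CXCL10, a chemokine, or with control solution, after which polyadenylated RNA was sequenced from 3 libraries per group, numbered 1, 3 and 4 in both. The model is a single leukaemia line. Nothing in the labels tells if the replicates came from separate cultures. P-values thus reflect the spread between these libraries alone, which may be technical.

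Complex I takes electrons from NADH, passes them through a flavin and a chain of iron-sulphur clusters in its matrix arm to ubiquinone, and pumps protons through its membrane arm. The core subunits, some of them encoded in mitochondrial DNA, carry out this chemistry, while the accessory subunits surround and stabilise them and the assembly factors build the complex without remaining in it. In macrophages the complex is known as a site of reactive oxygen production when electrons run backwards through it, and its activity shifts with inflammatory stimuli.

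Library totals ran from 34.8 to 41.0 M reads. Of 8 macrophage and monocyte markers, 7 were present at 46.7 CPM (the read count scaled to a common library total) or more in every library, and CD68 had 0 to 5 reads. Of 16 markers of T cells, B cells, epithelium, fibroblasts and red cells, MS4A1, EPCAM and HBA1 were among those with no reads, and CD4, PDGFRA and COL1A1 were the ones above 2 CPM. CD4, which monocytes also express, ran from 74.3 to 131 CPM and PDGFRA from 19.4 to 31.7 CPM. The summed fibroblast list spanned 25.6 to 28.3 CPM in controls and 21.7 to 33.3 CPM with CXCL10. The T cell list spanned 74.4 to 108.8 and 99.6 to 131 CPM, the B cell list 1.55 to 2.16 and 1.38 to 1.84 CPM, the epithelial list 0.139 to 0.474 and 0.171 to 0.623 CPM, and the red cell list at most 0.103 CPM. Control replicate 4 stood apart from the other libraries on the first principal component, at 66.6 against -19.6 to -6.11. This component held 44.2% of the variance. That library also had 7217 genes with 1 to 20 reads, against 9148 to 9837 in the others. The count was even for 75.8% of these genes there, against 66.8% to 68.0% in the others. The cause of these differences was not tested. In bulk RNA of this kind, fewer cells expressing a gene and less of its RNA per cell cannot be told apart.

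The short stretches of promoter below describe the start regions of members. A link between these letters and the levels in the libraries was not tested. RefSeq promoters (250 bases before and 50 after the annotated start, GRCh38.p14) matched 39 of the 46 members by symbol. NDUFS5, NDUFB5, NDUFB9, NDUFC2, NDUFA4 and NDUFAF6 were among those with no entry. Exact matches were sought on both strands. For every motif a member counted if any of its listed promoters matched, while the share of the table was taken per promoter. Members with several promoters thus had more chances of a match, and the shares are not in the same unit. AAGATGGC, the core of the site bound by the zinc finger protein YY1, was in the promoters of 8 members, or 20.5%, and in 2.89% of all 35116 promoters of the table. In each of the 8 it lay on the gene's own strand, beginning 10 to 25 bases after the annotated start whose window is printed. Where RefSeq lists several starts, 1 with a match was taken. From another start of NDUFAF8 the match lay 9 bases away, and further starts of NDUFAF8 and NDUFB8 had none in their windows. The 30 bases around it follow, 5′ to 3′ along the gene, with the match in capitals.
NDUFA3 (chr19:54102865-54102894, plus strand): ccgcggagacaAAGATGGCtgcgagtaagt
NDUFA6 (chr22:42090729-42090758, minus strand): gatgctttggcAAGATGGCggggagcggcg
NDUFA7 (chr19:8321343-8321372, minus strand): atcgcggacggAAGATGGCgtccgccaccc
NDUFA9 (chr12:4649113-4649142, plus strand): gattgtgggaaAAGATGGCggctgccgcac
NDUFAF8 (chr17:81239316-81239345, plus strand): aggacggacctAAGATGGCggcctccaggg
NDUFB8 (chr10:100529836-100529865, minus strand): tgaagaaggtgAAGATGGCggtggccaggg
NDUFS4 (chr5:53560649-53560678, plus strand): ttgcctgcagcAAGATGGCggcggtgtcaa
NDUFS7 (chr19:1383913-1383942, plus strand): aggccgaggccAAGATGGCggtgctgtcag

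The site of NRF1, a regulator of respiratory genes, was searched as GCGC, any base and TGCGC. It was in the promoters of 7 members, or 17.9%, and in 5.78% of all promoters. Its windows, 30 bases with the first match in capitals, are printed for comparison. The matches of NDUFA12 and NDUFA3 lie on the strand opposite the gene, so their capitals show the reverse complement of these letters. The printed matches began before the annotated start, at offsets from -170 to -4.
NDUFA11 (chr19:5903869-5903898, minus strand): ccggtccccgGCGCGTGCGCgcgatccatg
NDUFA12 (chr12:95003794-95003823, minus strand): acctagctctGCGCACGCGCagagccacca
NDUFA3 (chr19:54102675-54102704, plus strand): ctgcgcgagtGCGCACGCGCaggctccgaa
NDUFA8 (chr9:122159764-122159793, minus strand): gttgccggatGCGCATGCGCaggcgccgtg
NDUFA9 (chr12:4649024-4649053, plus strand): ttcttggttaGCGCTTGCGCagacaggcga
NDUFAF5 (chr20:13785014-13785043, plus strand): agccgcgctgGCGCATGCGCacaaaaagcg
NDUFB4 (chr3:120596167-120596196, plus strand): agagcacttcGCGCATGCGCatatcaccga

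CCGGAAG, the letters that ETS factors such as GABPA bind, were in 17.9% of the members and 10.3% of all promoters. GGGCGG, the SP1 letters, were in 64.1% and 45.0%. Matches of different motifs were counted apart also where they overlapped, and a match describes the sequence only. The 8 genes with the YY1 letters stood at a median of -0.58 in log2 fold change (CXCL10 against control) and the 31 without it at -0.33. NDUFA7, NDUFA9 and NDUFB8, among the 8, are low-count genes with mostly shared coding bases, described next. The medians for NRF1 were -0.34 with and -0.38 without, for ETS -0.39 and -0.35, and for SP1 -0.33 and -0.41.

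Several members had few reads, and most of their coding bases carried more than 1 gene name. For 7 of the 46, at least 50% of the coding bases of the main transcript were also covered by exons of another gene name in the annotation used for counting. These were NDUFV2 and NDUFA7 (100% each), NDUFA13 (98.4%), NDUFC2 (86.8%), NDUFA9 (85.1%), NDUFB8 (83.9%) and NDUFA11 (74.0%). The name that covered most of these bases lay on the same strand in each case, and for NDUFC2 it was the readthrough gene NDUFC2-KCTD14. Under the authors' settings a read over 2 gene names is counted for neither. The covering names had 0 reads in all libraries except AC010323.1 over NDUFA7 (0 to 1) and AC011448.1 over NDUFA13 (6 to 19).

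Their counts were low in every library: 6 to 22 reads for NDUFA7, 13 to 33 for NDUFV2, 48 to 88 for NDUFA13, 169 to 396 for NDUFA9, 184 to 384 for NDUFB8, 256 to 582 for NDUFA11 and 794 to 1625 for NDUFC2. NDUFV2 encodes a core iron-sulphur subunit, and its partner in the NADH-binding tip, NDUFV1, had 5062 to 6506 reads. Another core gene, NDUFS7, with 250 to 381 reads, shared 45.4% of its coding bases with antisense names. CD68, the macrophage marker with 0 to 5 reads, shared 100% with AC016876.2. The counts of these genes come from the bases that carry 1 name alone. Over the whole main transcript the shared part was smaller for some, at 11.8% for NDUFA9 and 19.0% for NDUFC2. NDUFB2, a membrane arm subunit with 83.4% of its main transcript but 24.1% of its coding bases shared, had 1629 to 3511 reads. The part of sharing in the low counts was not tested.

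**Figure D1:**
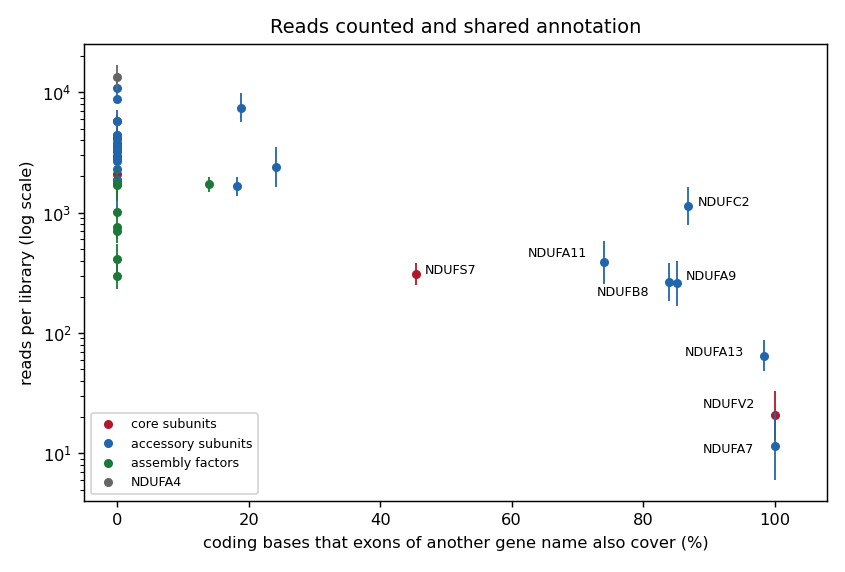
Reads per library (log scale) of 45 complex I genes, against the share of coding bases that exons of another gene name also cover. Lines run from the lowest to the highest of 6 libraries, with the point at the geometric mean of these extremes. The 7 genes at 74.0% or more have from 6 to 1625 reads, and NDUFV2 and NDUFA7 at 100% have the fewest.

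Among the other members the level per kb of exon spanned a wide range. NDUFS5, an accessory subunit on the intermembrane side of the membrane arm, was the highest, with 616 ± 155 CPM per kb in controls and 424 ± 84.7 with CXCL10 (mean ± SD, n = 3 each). NDUFA1, a small single-pass subunit of the membrane arm, followed at 418 ± 73.6 and 311 ± 44.6 CPM per kb, and NDUFB4, a membrane arm subunit, at 135 ± 10.7 and 120.0 ± 15.4. The lowest of the members with under 50% of coding bases shared was NDUFS7, at 1.22 ± 0.156 and 1.03 ± 0.205 CPM per kb, just below the assembly factor NDUFAF5 at 1.28 ± 0.139 and 1.09 ± 0.150, a gap within their spread. Exon length here joins the exons of all isoforms, so genes with long retained introns or tails are set too low. Per kb of main transcript NDUFS7 had 8.07 CPM, above NDUFAF5 at 1.53, NDUFS1 at 4.46 and NDUFAF7 at 4.65. NDUFA5, a matrix arm subunit, had 8.42 CPM per kb over its 9500 exon bases and 42.1 per kb of its main transcript. NDUFA1 is set too high instead, as its 421 exon bases are fewer than the 766 of its main transcript. Per kb of main transcript NDUFA1 had 200 CPM over all libraries, below NDUFB4 at 357 and NDUFB9 at 277.

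The comparison of CXCL10 with control asked how these transcripts differ after a day with the chemokine, a ligand of the receptor CXCR3. Of the 46 members, 42 had a log2 fold change below 0, where 46% of all genes tested did, and the median over members was -0.38 against 0.02 over all genes. After Benjamini-Hochberg adjustment over all genes, no member passed the quasi-likelihood test of edgeR (0 of 46, and 0% of all genes; lowest adjusted p = 0.683). At an unadjusted p under 0.05, edgeR counted 23 members, all lower with CXCL10, where 4.65% of all genes tested were lower and 2.5% higher at that level. DESeq2 also called 0 members after adjustment and counted 23 at an unadjusted p under 0.05 (4.8% of all genes were lower), and limma-voom 0 and 22 (4.28%). The count of 23 rested on single libraries: it was 1 without control replicate 4 (where 1.59% of all genes were counted lower), 3 without CXCL10 replicate 3 (1.95% of all genes) and 10 without CXCL10 replicate 4 (1.98%). Without CXCL10 replicate 1 it was 30 (7.01%). Scaled by library size alone it was 15, all lower (2.46% of all genes), and the median of all genes was then 0.10.

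All 3 CXCL10 libraries lay below all 3 controls for 20 members, which 6.48% of all genes tested did, and above them for none (5.76% of all genes). Control replicate 4 was the highest library for 38 members, against 25.8% of all genes, and CXCL10 replicate 3 the lowest for 32, against 19.5%. With control replicate 4 set aside, all CXCL10 libraries lay below controls 1 and 3 for 20 members, against 9.81% of all genes, and the median over members was -0.19. The members together took 0.375%, 0.366% and 0.468% of reads in control replicates 1, 3 and 4 and 0.373%, 0.307% and 0.331% in CXCL10 replicates 1, 3 and 4. CXCL10 replicate 1 thus lay between the controls.

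**Figure D2:**
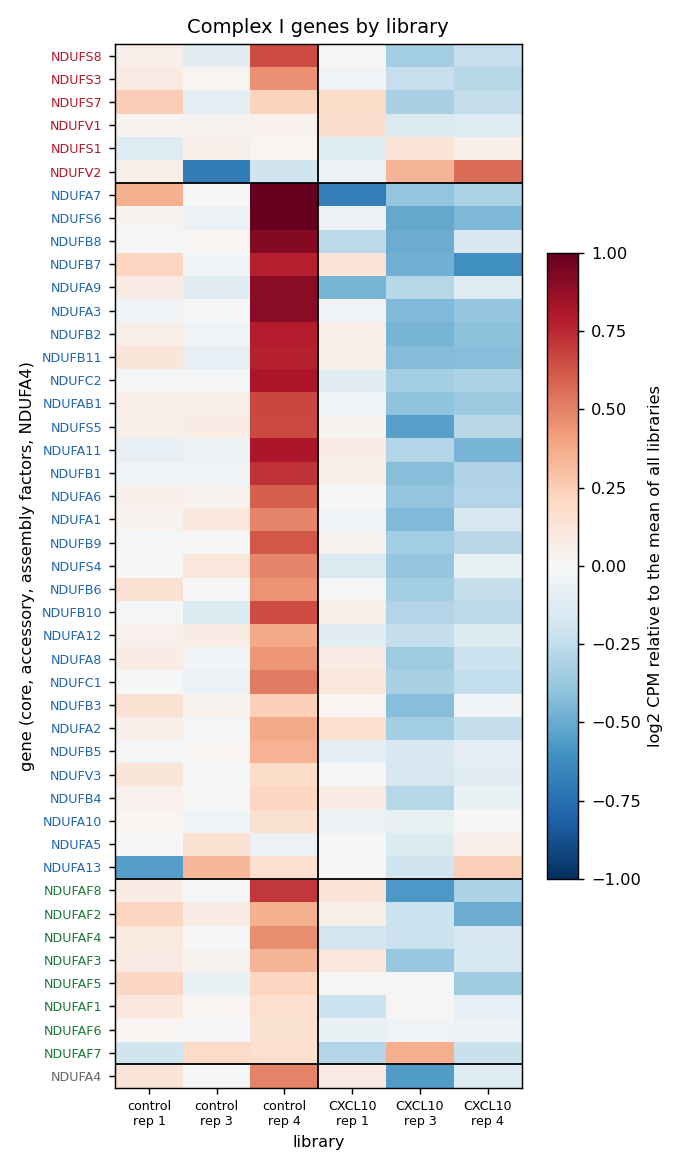
Log2 CPM of each of 45 complex I genes relative to its mean over all libraries (colour scale cut at -1 and 1), with genes ordered by class and fold change and libraries by group. Most accessory genes are highest in control replicate 4 and lowest in CXCL10 replicate 3, while NDUFS1 and NDUFV1 vary little.

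Ribosomal protein genes moved with these shares: their part of all reads was 9.08%, 8.92% and 11.8% in control replicates 1, 3 and 4 and 8.83%, 7.07% and 7.76% in CXCL10 replicates 1, 3 and 4. So did a trend with transcript length. Per doubling of main transcript length, log2 CPM relative to the other libraries shifted by -0.080 in control replicate 4, by 0.091 in CXCL10 replicate 3 and by 0.040 in CXCL10 replicate 4, with -0.032, -0.0031 and -0.016 in control replicates 1 and 3 and CXCL10 replicate 1. With the trends of main transcript length and GC content removed from each library, edgeR counted 17 members at an unadjusted p under 0.05, where 4.99% of all genes were lower, and the median was -0.28 against -0.03 over all genes. With control replicate 4 also left out it counted 4 (2.73% of all genes), with a median of -0.14 against -0.0092. Removing the exon length trend in place of these, again without that library, left a count of 0 members (1.58% of all genes) and a median of -0.18. Leaving out that library alone had left 1 (1.59% of all genes). With all 6 libraries kept and the exon length trend removed, the count stayed close to the 23 of the fit reported (4.37% of all genes were lower). The part of ribosomal protein RNA and of the other differences between libraries in these results was not tested.

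The core subunits divided by gene. Of the 7, 4 had a log2 fold change below 0, with a median of -0.06, which was -0.17 without CXCL10 replicate 1. Scaled by library size alone this median was 0.02. Only NDUFS3 and NDUFS8 had an unadjusted p under 0.05 in the edgeR fit with all 6 libraries, both lower (4.65% of all genes). NDUFS8 (chromosome 11, 68030617 to 68036644, hg38), which holds iron-sulphur clusters near the quinone site, measured 91.5, 81.6 and 139 CPM in control replicates 1, 3 and 4 and 88.2, 69.4 and 75.4 CPM in CXCL10 replicates 1, 3 and 4. Control replicate 4 was far above the rest, and CXCL10 replicate 1 lay above control replicate 3. Its log2 fold change was -0.42 ± 0.18 (SE; edgeR adjusted p = 0.683), or -0.15 without control replicate 4.

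NDUFS3 (chromosome 11, 47565336 to 47584562), a scaffold of the quinone module, measured 107, 101.9 and 138 CPM in controls and 98.2, 85.8 and 82.9 CPM with CXCL10, without overlap of the groups. Its log2 fold change was -0.38 ± 0.15, or -0.22 without control replicate 4. NDUFS7, the subunit with the last cluster before ubiquinone, had 9.86, 7.75 and 9.66 CPM in controls and 9.44, 6.61 and 7.01 CPM with CXCL10, with overlap, and a log2 fold change of -0.24 ± 0.19.

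NDUFV1 and NDUFS1 differed less between groups. NDUFV1 (chromosome 11, 67605653 to 67612554), which binds NADH and the flavin, measured 159, 159 and 160.1 CPM in the controls and 175, 141 and 142 CPM with CXCL10. Its controls were nearly equal and lay inside the range of the CXCL10 libraries, and the log2 fold change was -0.06 ± 0.13. NDUFS1 (chromosome 2, 206114817 to 206159509), the largest core subunit, had 48.0, 54.4 and 53.2 CPM in controls and 48.4, 57.8 and 54.5 CPM with CXCL10, for a fitted log2 difference of 0.05 ± 0.13. NDUFV2 had a log2 fold change of 0.59 ± 0.43 on its 13 to 33 reads.

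**Figure D3:**
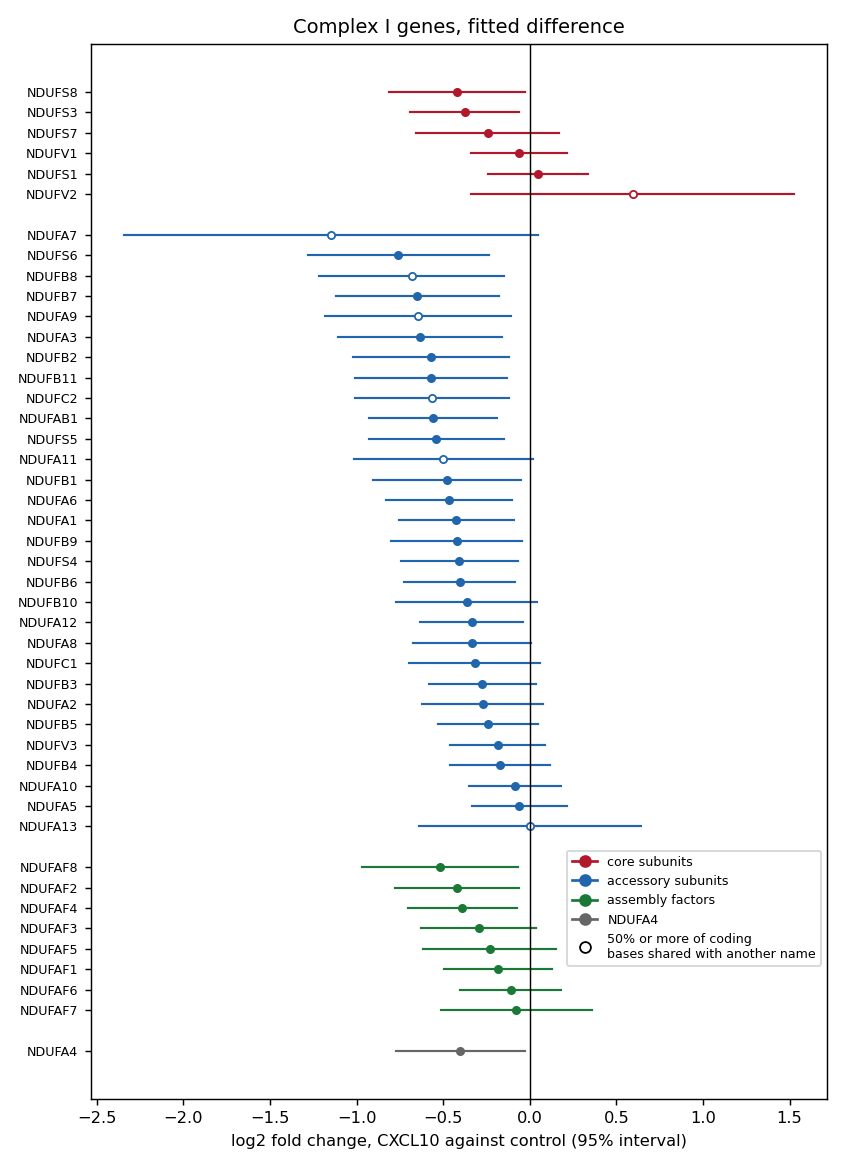
Fitted log2 fold change of CXCL10 against control with its 95% interval (edgeR, n = 3 libraries each) for 45 complex I genes by class. Open points mark the 7 genes with 50% or more of their coding bases shared with another gene name; 29 of 30 accessory genes and all 8 assembly factors lie below 0, and no gene passed the adjusted test.

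Among the 30 accessory subunits, 29 had a log2 fold change below 0, with a median of -0.42 and a range from -1.15 to 0.0031. Without control replicate 4 that median was -0.23. An unadjusted p under 0.05 was found for 17 of them in edgeR's fit, all lower (4.65% of all genes). The groups did not overlap for 15, again all lower (6.48% of all genes). The single one above 0 was NDUFA13, which is below 0 under DESeq2's and the upper-quartile scaling, and it had 48 to 88 reads. The 20 membrane arm members had a median of -0.42 and the 16 of the matrix arm, core subunits included, a median of -0.30.

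The lowest value came from NDUFA7, a matrix arm subunit, at -1.15 ± 0.56 on 6 to 22 reads. Next was NDUFS6 (chromosome 5, 1801400 to 1816605), a zinc-binding subunit of the NADH-oxidising module with no shared coding bases. It measured 79.2, 74.8 and 161 CPM in controls and 74.5, 54.5 and 56.9 CPM with CXCL10. The value of control replicate 4 was about that of the other controls added together, and the gap between the groups without it was from 74.5 to 74.8 CPM. Its log2 fold change was -0.76 ± 0.24 (edgeR adjusted p = 0.683), an interval of the fold from 0.411 to 0.849. Without control replicate 4 it was -0.31.

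NDUFB7 (chromosome 19, 14566078 to 14572066), on the intermembrane face of the membrane arm, measured 56.0, 47.3 and 82.9 CPM in controls and 52.8, 34.5 and 31.5 CPM with CXCL10. CXCL10 replicate 1 lay above control replicate 3, and the log2 fold change was -0.65 ± 0.22. NDUFA3 (chromosome 19, 54102728 to 54109257), a small membrane arm subunit, measured 54.9, 56.0 and 105 CPM in controls and 54.7, 41.3 and 42.8 CPM with CXCL10. The groups were separate by a narrow margin at CXCL10 replicate 1, and the log2 fold change was -0.64 ± 0.22. NDUFB8, a membrane arm subunit often used as a protein marker of the assembled complex, had 5.98, 6.11 and 11.5 CPM in controls and 4.99, 4.27 and 5.41 CPM with CXCL10, and NDUFA9, a subunit at the junction of the arms, had 6.68, 5.82 and 11.8 against 4.56, 5.17 and 5.80 CPM. Their log2 fold changes were -0.68 ± 0.25 and -0.64 ± 0.25. Without control replicate 4 the values were -0.38 for NDUFB7, -0.26 for NDUFA3, -0.30 for NDUFB8 and -0.27 for NDUFA9.

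NDUFAB1 (chromosome 16, 23581014 to 23596316), the mitochondrial acyl carrier protein that also serves fatty acid synthesis, had the lowest unadjusted p of the members in edgeR's fit (adjusted p = 0.683). Its values were 120.6, 120.6 and 183 CPM in controls and 111, 87.1 and 89.4 CPM with CXCL10, so that all CXCL10 libraries lay below all controls. The log2 fold change was -0.56 ± 0.17, and it was -0.33 without control replicate 4, where NDUFAB1 was the 1 member with an unadjusted p under 0.05 in edgeR's test. Without CXCL10 replicate 3, NDUFAB1, NDUFS6 and NDUFAF4 were the 3 that remained, with log2 fold changes of -0.48, -0.66 and -0.37.

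The 2 accessory subunits with the highest level per kb of exon were highest in control replicate 4 too. NDUFS5 (chromosome 1, 39026318 to 39034636) measured 287, 290.4 and 436 CPM in controls and 281, 189 and 227 CPM with CXCL10, without overlap, for a log2 fold change of -0.54 ± 0.18. NDUFA1 (chromosome X, 119871832 to 119876662) measured 154, 162 and 211 CPM in controls and 147, 110.5 and 135 CPM with CXCL10, also without overlap, for -0.42 ± 0.15. NDUFB11 (chromosome X, 47142216 to 47145504), a single-pass subunit of the membrane arm, measured 116, 100.6 and 182 CPM in controls and 110.4, 78.8 and 79.1 CPM with CXCL10. There CXCL10 replicate 1 exceeded control replicate 3, and the log2 fold change was -0.57 ± 0.20. With control replicate 4 left out, NDUFS5 was at -0.31 and both NDUFA1 and NDUFB11 at -0.27.

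Close to 0 among the accessory genes were NDUFA5 and NDUFA10, besides NDUFA13. NDUFA5 had 79.7, 88.6 and 76.5 CPM in controls and 79.4, 72.6 and 82.8 CPM with CXCL10, for a fitted log2 difference of -0.06 ± 0.13. NDUFA10, a nucleoside kinase-like subunit on the membrane arm, had 86.2, 82.5 and 94.8 against 81.6, 81.0 and 85.5 CPM, a log2 fold change of -0.09 ± 0.12. In both, control replicate 4 stood little or not at all above the other controls.

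Calls after adjustment appeared in a pair of alternative fits. Fitted over all genes with reads, without the filter, edgeR called 6 members lower. These were NDUFS6, NDUFB7, NDUFA3, NDUFB11, NDUFAB1 and NDUFS5, with adjusted p from 0.00145 to 0.0492, where 0.444% of 30869 genes were called. All 6 were highest in control replicate 4 (25.8% of all genes were). The log2 fold change of NDUFS6 was -0.76 with and without the filter. Its unadjusted p in edgeR was 0.0077 with the filter and 6.1e-07 without, and 0.067 in DESeq2. Filtered and without control replicate 4, edgeR's unadjusted p over the 6 ran from 0.036 (NDUFAB1) to 0.11 (NDUFA3). Limma-voom with weights for library quality called NDUFB7 (adjusted p = 0.0475, log2 fold change -0.66), where 0.254% of all genes were called.

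All 8 assembly factors had a log2 fold change below 0, with a median of -0.26, or -0.19 without control replicate 4. The groups did not overlap for 4 of them (6.48% of all genes were lower in this way). In edgeR's fit 3 had an unadjusted p under 0.05, all lower (4.65% of all genes). NDUFAF8 (chromosome 17, 81239305 to 81241310), the partner of the hydroxylase NDUFAF5, had the lowest value. It measured 45.7, 42.9 and 70.6 CPM in controls and 47.4, 29.01 and 34.8 CPM with CXCL10, with CXCL10 replicate 1 above controls 1 and 3. The log2 fold change was -0.52 ± 0.21, or -0.25 without control replicate 4.

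NDUFAF2 (chromosome 5, 60945205 to 61153026), which acts late when the NADH module is joined, measured 26.0, 23.5 and 28.7 CPM in controls and 23.3, 19.3 and 15.8 CPM with CXCL10. NDUFAF4 (chromosome 6, 96889315 to 96897891), which works with NDUFAF3 on the quinone module, measured 48.1, 45.0 and 61.8 against 39.4, 38.8 and 40.0 CPM. In both genes every CXCL10 library lay below every control, and the SD of NDUFAF4 over the 3 CXCL10 libraries was 0.629 CPM. The log2 fold changes were -0.42 ± 0.17 and -0.39 ± 0.15, or -0.34 and -0.24 without control replicate 4.

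The remaining assembly factors ran from -0.30 to -0.08. NDUFAF3 had -0.30 ± 0.15. NDUFAF5, which modifies NDUFS7, had -0.23 ± 0.18, and NDUFAF1, of the complex that assembles the membrane arm, had -0.18 ± 0.15. NDUFAF6 had -0.11 ± 0.14, with no overlap between 26.4 to 29.4 CPM in controls and 25.4 to 25.9 CPM with CXCL10. NDUFAF7, a methyltransferase, had -0.08 ± 0.20, a sign that was not kept when scaled by library size alone (0.0075).

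NDUFA4 (chromosome 7, 10931943 to 10940153) had the highest CPM of all members, though not the highest per kb. It measured 392, 356 and 506 CPM in controls and 379, 243 and 327 CPM with CXCL10. CXCL10 replicate 1 lay between controls 1 and 3, and the log2 fold change was -0.40 ± 0.17 (edgeR adjusted p = 0.683), or -0.24 without control replicate 4.

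The ratio of classes within a library is free of scaling between libraries. There were 4.07, 3.96 and 5.24 accessory reads per core read in control replicates 1, 3 and 4 and 3.87, 3.32 and 3.56 in CXCL10 replicates 1, 3 and 4, or 4.42 ± 0.708 and 3.58 ± 0.276 (mean ± SD, n = 3 each). All CXCL10 libraries lay below all controls, narrowly so for CXCL10 replicate 1. Assembly factor reads per core read were 0.379, 0.359 and 0.430 in controls and 0.342, 0.328 and 0.321 with CXCL10, also without overlap. The ratio weighs the most abundant genes of each class most.

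**Figure D4:**
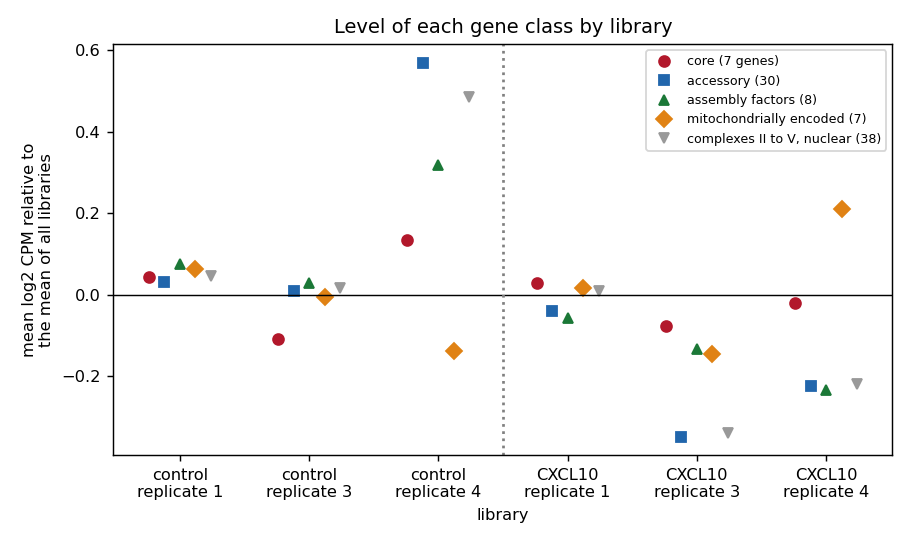
Class mean of log2 CPM, each gene set against its own average over the 6 libraries, for every library. The accessory mean runs from 0.57 in control replicate 4 to -0.35 in CXCL10 replicate 3. Nuclear genes of complexes II to V are at 0.49 and -0.34 there. The core mean stays between -0.11 and 0.13, but single core genes do not. In control replicate 4 NDUFS8 is at 0.65, NDUFS3 at 0.45 and NDUFV2, on 13 to 33 reads, at -0.20. In CXCL10 replicate 3 these genes are at -0.35, -0.23 and 0.34.

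Transcript length ran alongside the differences between members. The 23 members with a main transcript under 1 kb were at a median of -0.42 in log2 fold change, the 11 from 1 to 2 kb -0.32 and the 12 above 2 kb -0.21. All genes tested showed the same order, at -0.23, -0.10 and 0.07. At an unadjusted p under 0.05 in edgeR's fit, 14, 5 and 4 members were lower in the same bins, where 16.7%, 7.57% and 1.51% of all genes were. Across the 46 members, Spearman's rho between length and log2 fold change was 0.43, as a description across genes that share libraries and are not independent replicates. Of the 3 core genes under 1 kb, NDUFS3 and NDUFS8 were at -0.38 and -0.42, and NDUFV2 was at 0.59 on its few reads. NDUFS1 and NDUFV1, above 2 kb, stood at 0.05 and -0.06.

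**Figure D5:**
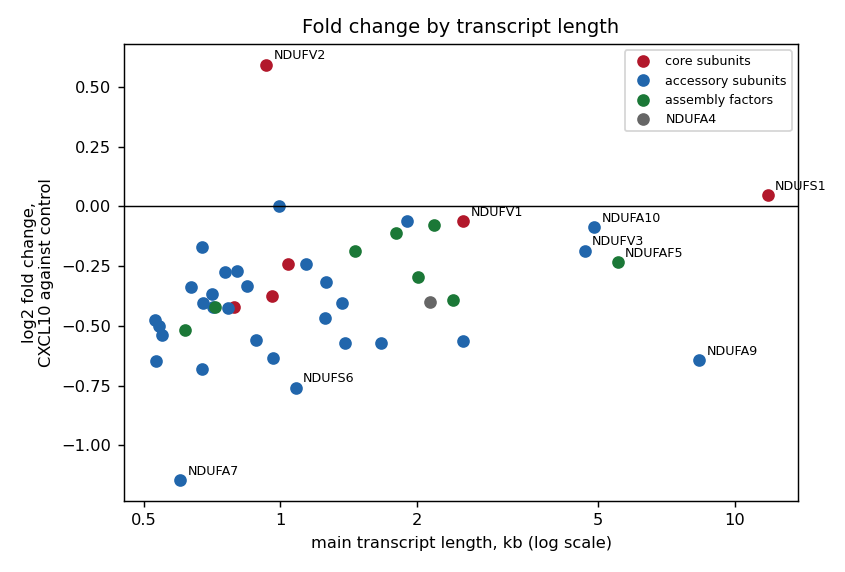
Log2 fold change of CXCL10 against control by main transcript length (kb, log scale) for 45 complex I genes, coloured by class. Transcripts under 1 kb lie from -0.68 to -0.17 except those of NDUFA7, NDUFV2 and NDUFA13, and NDUFS1, NDUFV1 and NDUFA10 lie near 0.

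The other genes of the pathway were measured beside the members. The 7 mitochondrially encoded subunits, which complete the core, were at a median log2 fold change of -0.02, 4 of them below 0, and 0 passed edgeR's adjusted test. MT-ND1, which lines the quinone tunnel, averaged 3371 ± 102 CPM over controls and 3331 ± 317 over CXCL10 libraries (SD, n = 3 each). MT-ND4L, a small proton-channel subunit, measured 178, 185 and 88.5 CPM in controls and 213, 187 and 266 CPM with CXCL10. Control replicate 4 was its lowest library, the groups did not overlap, and its log2 fold change of 0.56 ± 0.23 was the highest of the 7, against -0.27 ± 0.14 for MT-ND3, the lowest. Control replicate 4, the highest library of the accessory genes, was at -0.14 for the mitochondrially encoded genes.

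Of 13 further assembly genes outside the NDUF names, 8 were below 0 (median -0.09), and 0 passed after adjustment. In edgeR's fit 2 had an unadjusted p under 0.05, both lower (4.65% of all genes). TMEM126A had -0.41 ± 0.15 and TMEM70 -0.28 ± 0.13, while ACAD9, a partner of NDUFAF1, had 0.24 ± 0.13. The 38 nuclear genes of complexes II to V had a median of -0.40, with 36 below 0 and 0 past the adjusted test. At an unadjusted p under 0.05 in edgeR's fit 23 were counted, all lower (4.65% of all genes). These values were close to those of the accessory subunits. The 9 regulators of respiratory genes, among them NRF1, YY1 and PPARGC1B, had a median of 0.01 with 4 below 0, and none reached an unadjusted p under 0.05 in edgeR's fit.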

How the data were processed

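Gene counts of 6 libraries were used. Per the file headers, the authors made the deposited counts, raw reads per gene name, with featureCounts 2.0.6 on GENCODE 30 exons. Paired mode ran without pair counting, so both mates count. Strand was ignored, so antisense reads cannot be told apart, and reads over 2 names or several places were left out. The submitters' processing notes name Trim Galore, STAR, Subread and hg38.

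The comparison used edgeR 4.0.16 (R 4.3.3) with filterByExpr, TMM factors and a quasi-likelihood model of group, fitted on all 6 libraries. P-values of 16531 genes were adjusted by Benjamini-Hochberg, and 0.05 was the threshold. The fold change divided by the root of F gave standard errors. CPM is scaled to TMM-adjusted totals. Simulated counts served to check the test. Alternatives used DESeq2 1.42.0 and limma 3.58.1 (voom), other scalings and filters, a replicate block, halved counts, trends removed, and each library left out.

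Main transcripts came from GENCODE 29 (also GRCh38), taking the best APPRIS rank and then the longest coding sequence. Shared bases were found with the exons listed in the count files. Promoters came from RefSeq (GRCh38.p14).

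The members and lists were chosen with earlier results of these data known. Named in full are the core genes other than 1 that is not reported here, the assembly genes, NDUFA4, and accessory genes with the 6 lowest and 3 highest log2 fold changes, the 2 highest and 2 lowest levels per kb, or a call in any fit. Totals of 34.8 to 41.0 M reads limit the precision of low genes, and no member had 0 reads.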

Additional observations from a re-analysis of the deposited data

How the results depend on the processing

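The direction of the medians held for all members, accessory subunits and assembly factors under each alternative tried, and the count below 0 stayed from 39 to 44 of those tested. The core median was 0.016 scaled by library size alone. The count at an unadjusted p under 0.05 was less stable. It was 15 scaled by library size alone (2.46% of all genes were lower) and ran from 1 without control replicate 4 (1.59%) to 30 without CXCL10 replicate 1 (7.01%). It was 0 with the exon length trend removed and control replicate 4 left out (1.58%), and 4 with main transcript length and GC trends removed and that library left out (2.73%). With all 6 libraries kept, removing the exon length trend left it close to the 23 of the fit reported (4.37%). Members past the adjusted threshold numbered 6 with no filter on low counts, 1 by limma-voom with library quality weights, and 0 elsewhere, including a threshold of 0.1. With single libraries left out, the median over core subunits ran from -0.17 to -0.0043, over all members from -0.46 to -0.19, over accessory subunits from -0.53 to -0.23 and over assembly factors from -0.34 to -0.19. Without control replicate 4 and with the exon length trend removed, the median over all members was -0.18. With main transcript length and GC trends removed there, it was -0.14 over all members, -0.17 over accessory subunits and -0.13 over assembly factors. The trend fits that use main transcripts, or that leave out control replicate 4 as well, were chosen after seeing the data. The cause of these shifts was not tested.

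With the replicate number as a block (replicate block), 24 members had an unadjusted p under 0.05, where 4.60% of all genes were lower. After adjustment 0 passed, and the median was -0.37. The labels do not say whether equal numbers mark a shared culture or batch. Deviations of same-numbered libraries from the group means correlated at 0.026, 0.019 and -0.051. Those of differently numbered libraries correlated from -0.082 to 0.064. With 3 libraries per group these values cannot settle whether a batch was shared.

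Signs turned for 6 members, 5 of them near 0 in the fit reported and NDUFB10 at -0.37. NDUFS1 was at -0.083 with the exon length trend removed, -0.037 with that and without control replicate 4, -0.10 with main transcript length and GC trends removed, with or without that library, -0.0063 with control replicate 1 left out and -0.0043 without CXCL10 replicate 3. Of the fits with 1 library left out, the highest value was 0.12, without CXCL10 replicate 1. NDUFA13 was at -0.0035 with DESeq2's size factors, -0.0020 with upper-quartile factors, -0.0034 by DESeq2, -0.0029 with halved counts, -0.23 without control replicate 1 and -0.12 without CXCL10 replicate 4. With single libraries left out it ran from -0.23 to 0.21. NDUFAF7 was at 0.0075 with library size only, 0.011 without control replicate 3, 0.041 without CXCL10 replicate 1 and 0.012 without CXCL10 replicate 4, within a range from -0.31 to 0.041 over single libraries left out. NDUFA5 was at 0.016 with library size only and 0.019 without control replicate 3. NDUFV1 was at 0.016 with library size only and 0.0036 without CXCL10 replicate 3. NDUFB10 was at 0.043 with main transcript length and GC trends removed and without control replicate 4.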

Other observations

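The count files also hold 59 pseudogene names of complex I genes, from 19 parent genes. Of these, 14 had any read, and together they had 341 reads over the 6 libraries against 832076 for the members. NDUFV2P1 alone had 215 of the 341, with 12 to 56 reads per library, while its parent NDUFV2 had 13 to 33. NDUFA4L2, a relative of NDUFA4 known as a hypoxia-induced gene, had 87 to 138 reads per library, and the readthrough name NDUFC2-KCTD14 had 0 in all 6.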
